A study of Homo sapiens with 9 samples.

Results

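The kinases whose gene names refer to the ribosomal protein S6 include those of 8 genes, RPS6KA1 to RPS6KA6, RPS6KB1 and RPS6KB2. Their expression was described in human TCam-2 cells in which the homeobox gene ESX1 had been activated. The members were chosen by gene symbol and account for 8 of the 58219 genes on primary chromosomes in the count table. RPS6KA5 came first because the study had singled it out for a lower level in the activated cells than in both controls. The study also reports a lower level by real-time PCR in these cells. In testis tissue of an azoospermic patient with an ESX1 mutation it reports a raised level. RPS6KA5 was thus selected on the comparisons of the activated cells, and its values there are given as a description with no test. The other 7 members entered through their names, although the members were listed with earlier results of these data known. All 8 passed the filter on low counts, which left 18452 genes for testing.

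These enzymes are serine/threonine kinases that pass on signals from growth factors and stress. The RSK kinases (RPS6KA1, RPS6KA3, RPS6KA2 and RPS6KA6, also called RSK1 to RSK4) lie below the MAP kinase ERK, which activates RSK1 to RSK3 together with PDK1. The MSK kinases (RPS6KA5 or MSK1, and RPS6KA4 or MSK2) are nuclear, respond to both ERK and p38, and phosphorylate CREB, histone H3 and HMGN1, which accompanies the induction of immediate-early genes. The S6 kinases proper (RPS6KB1 and RPS6KB2) act below the mTORC1 complex and phosphorylate S6 and other proteins of translation.

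TCam-2 is a line derived from a testicular seminoma, a germ cell tumour. RNA of 9 samples was sequenced, with 3 of unmodified wild-type cells (WT), 3 of a negative control (NC) and 3 of cells with the activated ESX1 gene (marked ESX1). NC cells received the px335_G2P vector with nonspecific gRNAs, while the activated cells received px335_G2P vectors with gRNAs for ESX1 and the PB-TRE-dCas9-VPR activator. The transfected cells were selected with puromycin and induced with doxycycline, and GFP marked only some of them. The RNA may thus have come from a mixture of transfected and untransfected cells. By immunofluorescence the study reports ESX1 protein, at strong or weak signal, in nuclei of the activated cells. Whether NC cells also carried the activator is not given in the sources used here. WT cells went through neither transfection nor selection, so these steps and the vector cannot be told apart in a comparison with WT. In such bulk RNA, fewer cells that express a gene and less RNA per cell cannot be told apart.

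The targeted gene checked the labels of the activated samples, but could not tell NC from WT. ESX1 had 562, 554 and 170 counts in the activated samples, 35, 27 and 34 in NC and 33, 28 and 30 in WT. In normalized CPM (counts per 1000000 counts, with library sizes scaled by the TMM method), its mean was 48.0 ± 14.4 (SD, n = 3) after activation, 3.33 ± 0.385 in NC and 3.61 ± 0.474 in WT. Total counts per sample ranged from 5212804, in ESX1 replicate 3, to 10644408. The share of counts on mitochondrially encoded genes was 19.2% to 19.9% in ESX1, 17.0% to 18.3% in WT and 14.5% to 15.3% in NC. All 8 seminoma markers, among them NANOG, POU5F1 and SOX17, were above 3 counts in every sample, and their summed CPM was 3631 to 4428 in WT, 2673 to 2869 in NC and 1481 to 1811 in ESX1. SOX17 did not follow the sum, with a mean of 227 CPM in WT, 251 in NC and 245 in ESX1. Each of the other seminoma markers had its highest mean in WT and its lowest in ESX1. SOX2, which seminoma cells typically lack, was at 1.88 to 11.8 CPM. Summed markers of Sertoli cells reached 8.02 to 22.5 CPM, those of Leydig cells 1.17 to 4.46 CPM with INSL3 at 0 in every sample, those of fibroblasts and muscle 0.209 to 3.71 CPM and those of leukocytes at most 0.204 CPM.

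The RPS6KA5 locus (ENSG00000100784.10) occupies chromosome 14 from 90847862 to 91060636 in GRCh38 and is transcribed from the minus strand. One further gene, C14orf159 (ENSG00000133943.20, named DGLUCY by RefSeq), starts inside its 5′ end on the opposite strand and runs the other way, from 91060333 to 91225632. The 2 genes share 304 exon bases, which are 1.10% of the exon bases of RPS6KA5 and 4.22% of those of C14orf159. Both promoter windows are shown because the pair lies head to head and C14orf159 is the only gene that overlaps RPS6KA5. Each window holds the 250 bases before and the 50 bases after an annotated RefSeq start in GRCh38.p14, written 5′ to 3′ along the strand of its gene. Capitals mark the letters CCAAT.
RPS6KA5, chr14:91060592-91060891, minus strand: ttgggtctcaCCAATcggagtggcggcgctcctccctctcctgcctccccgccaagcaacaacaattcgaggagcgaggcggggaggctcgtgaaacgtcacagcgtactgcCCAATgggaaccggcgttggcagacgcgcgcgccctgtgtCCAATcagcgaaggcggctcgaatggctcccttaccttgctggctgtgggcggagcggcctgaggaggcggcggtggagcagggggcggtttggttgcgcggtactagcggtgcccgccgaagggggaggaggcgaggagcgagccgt
C14orf159 (DGLUCY), chr14:91060083-91060382, plus strand: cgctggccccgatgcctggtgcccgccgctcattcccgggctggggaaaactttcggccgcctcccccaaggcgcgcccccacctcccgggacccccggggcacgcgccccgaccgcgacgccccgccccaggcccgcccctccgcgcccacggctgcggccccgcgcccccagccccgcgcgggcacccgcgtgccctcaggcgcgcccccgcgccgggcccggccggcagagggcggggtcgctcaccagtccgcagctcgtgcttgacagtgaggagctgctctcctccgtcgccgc

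The RPS6KA5 window held CCAAT 3 times and had a GC content of 67.7%. The C14orf159 window held no CCAAT and had a GC content of 81.0%. RefSeq lists a second RPS6KA5 start whose window, chr14:91060075-91060374, covers almost the same bases as the C14orf159 window on the other strand. CCAAT, read on both strands, occurred in 34.6% of the 35116 promoter windows of the same length. The homeodomain core TAATTA, searched on both strands because ESX1 is a homeobox protein, was found in 4.84% of all windows and in none of the windows of the 8 members or C14orf159. The cyclic AMP response element TGACGTCA, the element to which CREB binds (1.85% of all windows), and TATAAA (11.5%) were also not found there. These matches describe letters in the windows and nothing about binding.

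RPS6KA5 had 263, 404 and 150 counts in ESX1 replicates 1 to 3, 494, 557 and 585 in NC, and 583, 435 and 650 in WT. On the normalized scale these were 26.7, 40.6 and 27.7 CPM in ESX1, 51.2, 59.7 and 59.5 CPM in NC, and 63.7, 63.4 and 67.9 CPM in WT. All 3 activated samples lay below all 6 control samples, and ESX1 replicate 2 was the highest of the 3. The group means were 31.7 ± 7.79 CPM in ESX1, 56.8 ± 4.86 CPM in NC and 65.0 ± 2.53 CPM in WT (SD, n = 3 each). The RPS6KA5 level in ESX1 was 0.490 of that in WT (log2 fold change -1.03, SE 0.153) and 0.560 of that in NC (log2 fold change -0.84, SE 0.152). The difference from WT was thus just past 2-fold and that from NC just short of it. The study lists RPS6KA5 at 2-fold or more against both controls, from counts normalized with DESeq2. Among the other members the widest difference between ESX1 and a control was a log2 fold change of 0.50, for RPS6KA4.

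ESX1 replicate 2 decided part of the size. Without it, the log2 fold change of RPS6KA5 was -1.26 against WT and -1.07 against NC, while leaving out ESX1 replicate 1 gave -0.91 and -0.72. Leaving out the shallowest library, ESX1 replicate 3, gave -0.92 and -0.74, and removing the mitochondrially encoded genes before scaling gave -1.02 and -0.84. The authors' own normalized log2 values for RPS6KA5 were 8.12, 8.66 and 8.14 in ESX1, 8.94, 9.16 and 9.16 in NC, and 9.24, 9.23 and 9.32 in WT, in which the groups again did not overlap. The summed seminoma markers, though not SOX17 among them, had the same order of the 3 groups as RPS6KA5. One of these markers, NANOG, had also been singled out by the study for a lower level in the activated cells. The part of the markers in the RPS6KA5 level was not tested.

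NC against WT, a comparison that played no role in choosing RPS6KA5, could be tested. All 3 NC samples were below all 3 WT samples, but the log2 fold change was only -0.19 (SE 0.148, 95% interval -0.51 to 0.12). It did not pass the test (edgeR quasi-likelihood test, Benjamini-Hochberg adjusted p = 0.396). The interval leaves room for a fall of up to 0.51 on the log2 scale in the vector control, so no difference was detectable, and equality was not shown.

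**Figure D1:**
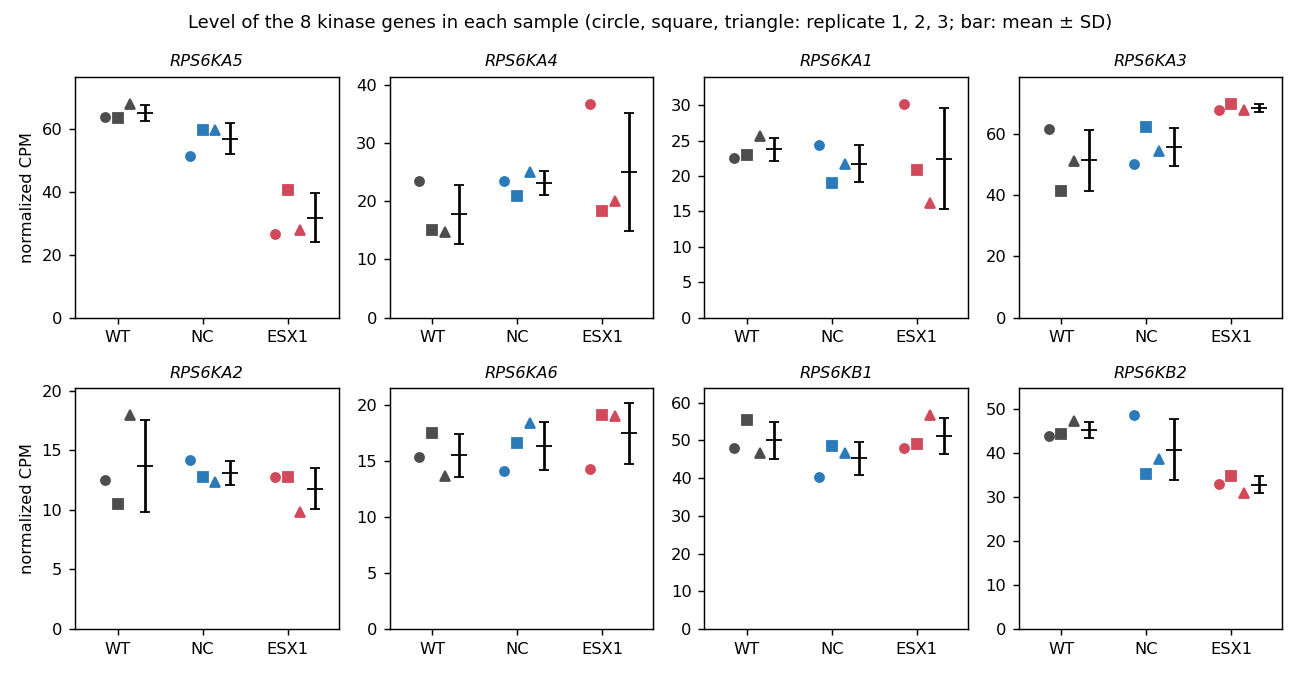
Normalized CPM (vertical axis, from 0) of the 8 kinase genes in WT, NC and ESX1, with circles, squares and triangles for replicates 1, 2 and 3 and black bars for the mean ± SD. RPS6KA5 in the 3 activated samples, 26.7 to 40.6 CPM, sits below the controls, whose lowest sample is at 51.2 CPM, whereas RPS6KA1, RPS6KA2, RPS6KA4, RPS6KA6 and RPS6KB1 overlap between ESX1 and both controls.

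RPS6KA4 encodes MSK2, the closest relative of MSK1. It was at 36.8, 18.4 and 20.1 CPM in ESX1, 23.5, 21 and 25 CPM in NC, and 23.6, 15 and 14.7 CPM in WT. The groups overlapped, and ESX1 replicate 1 stood above the other 8 samples. The log2 fold change was 0.50 against WT (SE 0.243, 95% interval -0.01 to 1.02, edgeR adjusted p = 0.132), 0.12 against NC (SE 0.239, adjusted p = 0.866) and 0.38 between NC and WT (SE 0.243, adjusted p = 0.305). Without ESX1 replicate 1 the difference from NC turned to -0.27. The difference from WT passed the edgeR test under some alternatives, with an adjusted p of 0.0334 without WT replicate 1, 0.0422 without ESX1 replicate 2 and 0.0458 without a filter on low counts.

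Levels of the pair were set side by side per kilobase of annotated exon. RPS6KA5 made up 34.2% of the summed MSK level in WT (27.0% to 38.8%), 25.2% in NC (23.0% to 28.1%) and 16.1% in ESX1 (9.05% to 23.3%). The ranges of NC and WT overlapped, and so did those of ESX1 and NC. The MSK sum itself was 7.01 ± 1.28 CPM per kb in WT, 8.14 ± 0.535 in NC and 7.74 ± 2.50 in ESX1. RPS6KA4 made up the larger part of that sum in every sample. These shares rest on the annotated exon lengths, 27726 bases for RPS6KA5 and 3807 for RPS6KA4. Before division by length the order of the means was the reverse. Mean CPM of RPS6KA5 and RPS6KA4 was 65.0 and 17.8 in WT, 56.8 and 23.2 in NC, and 31.7 and 25.1 in ESX1. In ESX1 replicate 1, however, RPS6KA4 was also the higher in CPM.

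Of the RSK genes, RPS6KA3 (ENSG00000177189.12) alone passed the test in the activated cells. RPS6KA3 encodes RSK2, the kinase mutated in Coffin-Lowry syndrome. It was at 67.8, 69.9 and 67.8 CPM in ESX1, 50.2, 62.5 and 54.5 CPM in NC, and 61.6, 41.5 and 51.1 CPM in WT. All activated samples lay above all controls, and the controls overlapped each other. RPS6KA3 rose against WT by a log2 fold change of 0.41 (SE 0.140, edgeR adjusted p = 0.0353). Against NC the log2 fold change of 0.30 (SE 0.139, edgeR adjusted p = 0.301) did not pass, and NC differed from WT by 0.11 (adjusted p = 0.626). The call against WT was lost without any one of ESX1 replicates 1 to 3 (edgeR adjusted p = 0.0629, 0.0735 and 0.0603), without WT replicate 2 (0.208) and without WT replicate 3 (0.0872).

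The other 3 RSK genes did not pass the test in any comparison. RPS6KA1, which encodes RSK1, was at 16.3 to 30.2 CPM in ESX1, 19.1 to 24.4 in NC and 22.6 to 25.7 in WT. RPS6KA2, which encodes RSK3, was at 9.79 to 12.8 CPM in ESX1, 12.3 to 14.2 in NC and 10.5 to 18.0 in WT. RPS6KA6, the X-linked gene of RSK4, was at 14.3 to 19.1 CPM in ESX1, 14.1 to 18.4 in NC and 13.7 to 17.5 in WT. The 3 groups overlapped for each of these genes. Their log2 fold changes between ESX1 and WT were -0.07 (95% interval -0.48 to 0.35) for RPS6KA1, -0.21 (-0.66 to 0.24) for RPS6KA2 and 0.17 (-0.22 to 0.56) for RPS6KA6. Changes of the size seen for RPS6KA5 lie outside these intervals, whereas changes within them could not be resolved.

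Of the S6 kinases proper, RPS6KB2 passed the test against WT and RPS6KB1 did not, and the genes were not tested against each other. RPS6KB2 (ENSG00000175634.14), which encodes S6K2, was at 32.9, 34.6 and 30.8 CPM in ESX1, 48.5, 35.1 and 38.6 CPM in NC, and 43.9, 44.3 and 47.2 CPM in WT. All activated samples were below all controls, although ESX1 replicate 2 and NC replicate 2 were close together. RPS6KB2 fell against WT by 0.46 on the log2 scale (SE 0.142, edgeR adjusted p = 0.0219). Against NC its log2 fold change was -0.31 (SE 0.142, edgeR adjusted p = 0.287), and NC and WT differed by -0.15 (adjusted p = 0.5). The call against WT was lost without ESX1 replicate 3 (edgeR adjusted p = 0.0933), without WT replicate 3 (0.068) and with upper-quartile scaling (0.0692). The RPS6KB2 exons share 8.07% of their bases with AP003419.16 on the opposite strand, a gene with 0 counts in every sample.

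RPS6KB1, which encodes S6K1, was at 48.0, 49.0 and 56.7 CPM in ESX1, 40.3, 48.7 and 46.7 CPM in NC, and 47.9, 55.5 and 46.6 CPM in WT. These groups overlapped. Its log2 fold change was 0.03 against WT (95% interval -0.24 to 0.31, edgeR adjusted p = 0.882) and 0.18 against NC (-0.10 to 0.45, adjusted p = 0.574).

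Over the 7 members other than RPS6KA5, 1 was higher and 1 lower in ESX1 than in WT at an adjusted p below 0.05, and 0 of these changed 2-fold. Among all genes tested, 12.9% were higher and 15.8% lower in that comparison, and 11.5% passed both the p and the 2-fold threshold, so the count in the family was near the background. Between ESX1 and NC, 0 of the 7 passed in edgeR, with 2 at an unadjusted p below 0.05, and 0 passed in DESeq2 or in limma. Among all genes, 1.88% were higher and 2.37% lower there, and 1.78% also changed 2-fold. Between NC and WT, 0 of the 7 passed in edgeR, DESeq2 or limma, and 0 had an unadjusted p below 0.05 in edgeR, against 6.82% of all genes higher, 10.3% lower and 5.27% past 2-fold as well. The median log2 fold change of the 7 was 0.03, 0.09 and -0.07 in the 3 comparisons, and the median of all tested genes was 0.01 or less in each. In 2 of the 7, RPS6KA3 and RPS6KB2, all 3 activated samples lay outside the range of the 6 controls, as they did in 13.6% of all tested genes.

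**Figure D2:**
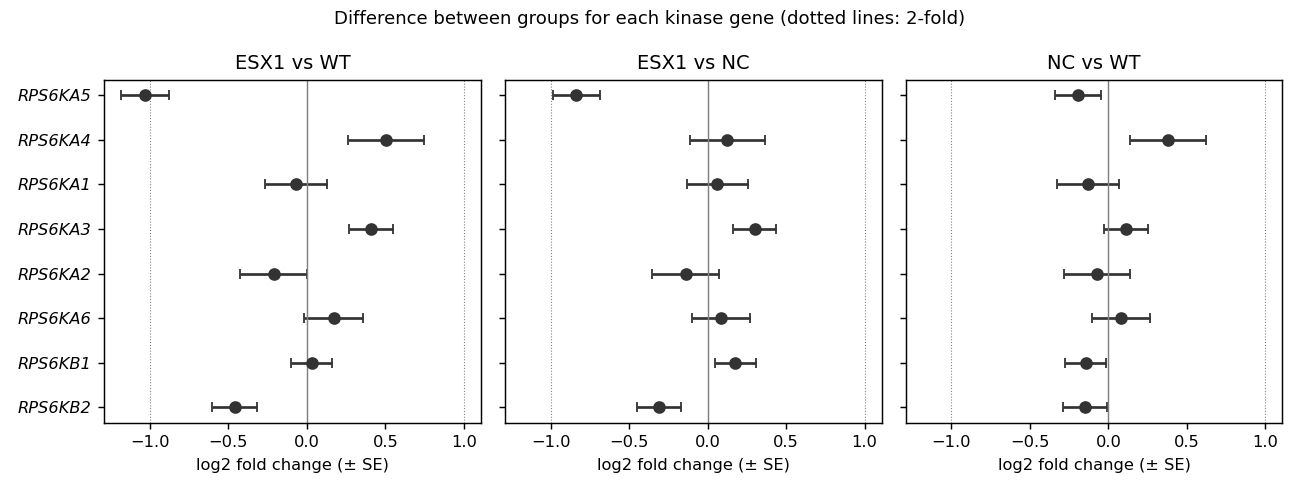
Log2 fold change (horizontal axis, ± SE from the edgeR fit) of each kinase gene between ESX1 and WT, ESX1 and NC, and NC and WT, with dotted lines at a 2-fold change. RPS6KA5 stands at -1.03 and -0.84 in the comparisons of the activated cells and at -0.19 between the controls, and the other 7 genes lie between -0.46 and 0.50.

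Per kilobase of exon, the members spanned less than an order of magnitude in each group. In WT the order ran from RPS6KB2 (7.75 CPM per kb) over RPS6KB1 (6.51), RPS6KA3 (5.82), RPS6KA4 (4.67) and RPS6KA1 (4.04) to RPS6KA5 (2.34), RPS6KA6 (1.83) and RPS6KA2 (1.66). From RPS6KB1 to RPS6KA1 each gene overlapped the next in its samples, as did RPS6KA6 and RPS6KA2, while RPS6KA5 was separate from both its neighbours. In NC, RPS6KA5 held the same place (2.05 CPM per kb) but overlapped RPS6KA6 (1.93). In ESX1 it was the lowest member at 1.14 CPM per kb, below RPS6KA6 (2.06) and overlapping RPS6KA2 (1.43). At the top of the ESX1 order RPS6KA3 (7.75) was separate from RPS6KB1 (6.66), which overlapped RPS6KA4 (6.60). The RPS6KA4 samples, at 4.84 to 9.67, also spanned those of RPS6KA3, at 7.67 to 7.91. The place of RPS6KA5 rests on its annotated exon length of 27726 bases, compared with 3807 to 8837 bases for the others, and the isoform that TCam-2 cells use was not determined.

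**Figure D3:**
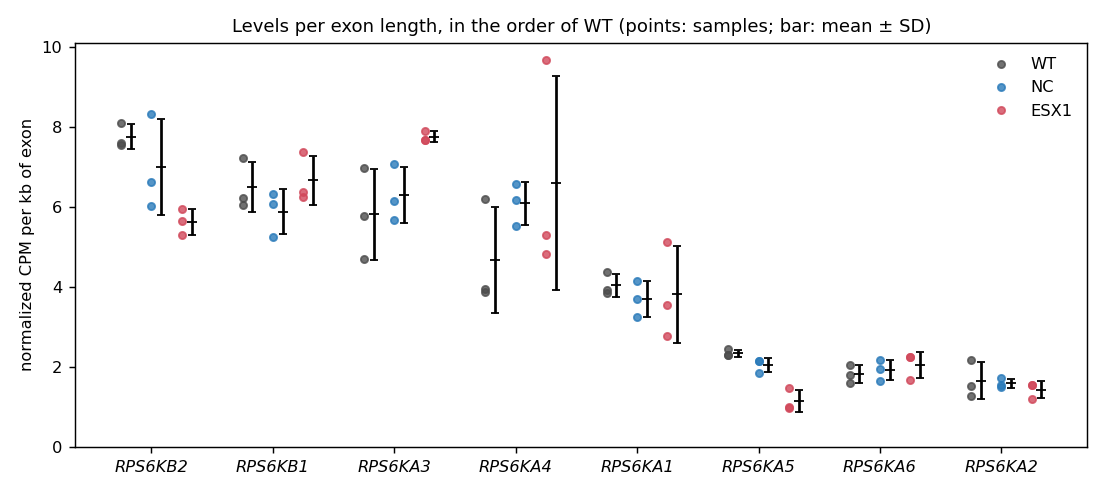
Level of each kinase gene in normalized CPM per kilobase of exon (vertical axis, from 0), in the order of the WT means, with a point for each sample and a black bar for the mean ± SD. RPS6KA5 is at 2.34 in WT, 2.05 in NC and 1.14 in ESX1, and RPS6KB2 and RPS6KB1 head the order in WT.

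The sum over the 8 genes hardly moved. It was 34.6 ± 1.71 CPM per kb in WT, 34.5 ± 0.604 in NC and 35.1 ± 3.05 in ESX1, with overlapping ranges. The 4 RSK genes together held 38.5% of this sum in WT, 39.1% in NC and 43.0% in ESX1, and every ESX1 sample (41.6% to 45.1%) exceeded every control (36.2% to 40.8%). The S6 kinases proper held 41.3%, 37.3% and 35.3% and the MSK genes 20.2%, 23.6% and 21.8%, with overlapping groups. These shares are relative within the family, rest on the annotated exon lengths and carry no test.

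C14orf159 encodes D-glutamate cyclase, a mitochondrial enzyme, and is no kinase, but its first exon bases lie within RPS6KA5. It was at 6.39, 9.36 and 6.83 CPM in ESX1, 16.7, 14.9 and 13.9 CPM in NC, and 13.1, 14.4 and 15.4 CPM in WT. As for RPS6KA5, all activated samples were below all controls, and ESX1 replicate 2 was the highest of the 3. C14orf159 fell by 0.91 against WT (SE 0.203, edgeR adjusted p = 0.00272) and by 1.0 against NC (SE 0.201, adjusted p = 0.00711) on the log2 scale, and NC did not differ detectably from WT (0.09, adjusted p = 0.796). Both calls held in each of the 9 other fits and without each of the 9 samples, with adjusted p up to 0.0167 against WT and 0.0454 against NC. The counting did not use the strand, so reads from the 304 shared bases cannot be given to either gene.

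On the other side of RPS6KA5, the nearest tested protein-coding gene was TTC7B, which encodes a subunit of the phosphatidylinositol 4-kinase complex and lies 31.4 kb away, with its start on the side of RPS6KA5. TTC7B was at 40.1, 37.1 and 39.5 CPM in ESX1, 43.1, 40.9 and 44.2 CPM in NC, and 35.3, 40.5 and 43.0 CPM in WT. ESX1 overlapped WT but lay below NC. Its log2 fold change was -0.03 against WT (95% interval -0.30 to 0.24, edgeR adjusted p = 0.902) and -0.14 against NC (-0.41 to 0.13, adjusted p = 0.678). The lower level was measured in the 2 overlapping genes and was not detected in TTC7B.

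**Figure D4:**
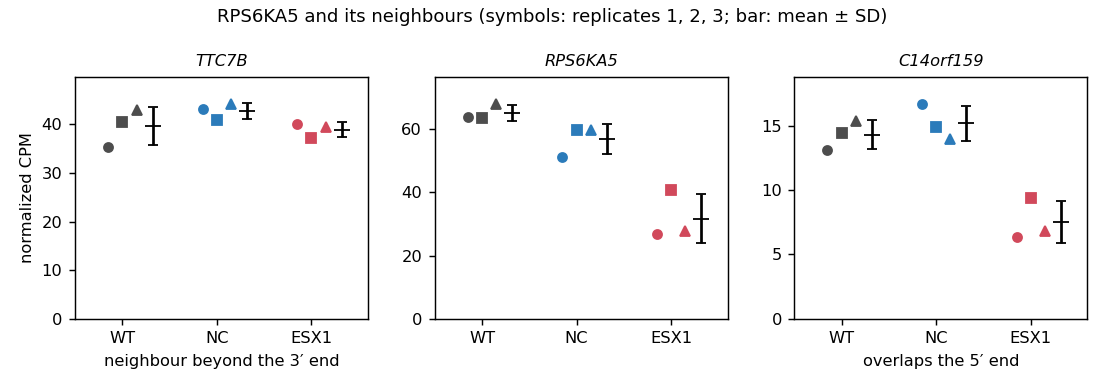
Normalized CPM (vertical axes, each from 0) of TTC7B, RPS6KA5 and C14orf159 in the 9 samples, with circles, squares and triangles for replicates 1, 2 and 3 and black bars for the mean ± SD. The activated samples are below all controls for RPS6KA5 (at most 40.6 against at least 51.2) and for C14orf159 (at most 9.36 against at least 13.1), but not for TTC7B.

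Across all 9 samples, the genes with a pattern most like that of RPS6KA5 were CNTLN, ARHGAP29, BNC2, RP11-705C15.2 and TMEM150C. Likeness was the root mean square difference between centred log2 CPM values, which was 0.095 for CNTLN, 0.117 for ARHGAP29, 0.133 for BNC2, 0.144 for RP11-705C15.2 and 0.148 for TMEM150C, with a median of 0.589 over all genes. CNTLN, which encodes a centrosomal protein, was at 60.9 CPM in ESX1, 94.8 in NC and 115 in WT. ARHGAP29, a GTPase activating protein, was at 198, 379 and 424 CPM, and BNC2, a zinc finger protein, at 39.2, 76.0 and 78.7 CPM. The likeness chose these genes, so their levels carry no test. Within the family RPS6KB2 was nearest to RPS6KA5 (0.348, place 1299 of 18451) and RPS6KA4 the farthest (0.759).

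The genes around the kinases were grouped into 6 lists of 54 genes in all, of which 53 could be tested and MAPK11 was too low. In ESX1 against WT, 12 were higher and 11 lower, and 9 of these changed 2-fold. In NC against WT, 2 were higher and 11 lower, and 6 of these changed 2-fold. Against NC, 2 of the 53 passed, MAPK12 and DUSP1, both higher, and only MAPK12 changed 2-fold. The shares of all genes given above apply here and to each list below. In ESX1 against WT, 12 of 53 higher and 11 of 53 lower compare with 12.9% and 15.8% of all genes. The median log2 fold change over the 53 was 0.03 against WT, 0.06 against NC and -0.05 between NC and WT. The count of 23 for ESX1 against WT became 15 without ESX1 replicate 3 or without WT replicate 3, and that of 13 for NC against WT became 6 without NC replicate 3, 8 without WT replicate 2 and 7 without WT replicate 3.

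MAPK12 encodes p38 gamma, one of the p38 MAP kinases. It had 161, 100 and 50 counts in ESX1, 14, 14 and 9 in NC, and 13, 10 and 17 in WT, or 9.24 to 16.3, 0.916 to 1.5 and 1.42 to 1.78 CPM. The activated samples were far above the controls, which overlapped. MAPK12 rose by a log2 fold change of 2.93 against WT (SE 0.325, edgeR adjusted p = 4.43e-06) and 3.20 against NC (SE 0.328, adjusted p = 1.69e-05). On the deposited log2 values, which compress low counts, limma gave 1.71 and 1.81. Of the exon bases of MAPK12, 29.3% are shared with other listed genes.

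MAPK12 belongs to the p38 arm, whose kinases MAPK14 and MAPK11 are the known activators of MSK1. Of the 5 tested genes of this arm, 2 were higher in ESX1 than in WT, MAPK12 and MAP2K3, and 1 was lower, MAP2K6. MAP2K3, a kinase upstream of p38, was at 8.85 to 22.5 CPM in ESX1, 9.43 to 15.8 in NC and 5.54 to 9.50 in WT. It rose by 1.07 in ESX1 against WT (edgeR adjusted p = 0.0177), while its log2 fold change was 0.26 between ESX1 and NC (adjusted p = 0.756) and 0.81 between NC and WT (adjusted p = 0.0876). The call against WT was lost without ESX1 replicate 1 (0.167), WT replicate 2 (0.0702) or WT replicate 3 (0.0688). MAP2K6, the other such kinase, was at 7.10 to 14.9 CPM in ESX1, 8.35 to 10.7 in NC and 12.2 to 29.6 in WT. MAP2K6 fell by 1.03 in ESX1 (edgeR adjusted p = 0.0149) and by 1.12 in NC (adjusted p = 0.0142) against WT, and both calls were lost without WT replicate 3 (0.1 and 0.0945). The first was also lost without ESX1 replicate 1 (edgeR adjusted p = 0.0654) or ESX1 replicate 3 (0.0696), and the second without NC replicate 3 (0.0737). Its log2 fold change between ESX1 and NC was 0.09.

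In the ERK arm, which activates both the RSK and the MSK kinases, 1 of 10 genes was lower and 0 were higher in ESX1 than in WT, and 2 were lower and 0 higher in NC than in WT. The median log2 fold change of the 10 genes was -0.09 against WT, 0.02 against NC and -0.08 between NC and WT, and 0 of them changed 2-fold in any comparison. Between ESX1 and NC, 0 of the 10 passed in edgeR, with 1 at an unadjusted p below 0.05.

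The PDK1 and mTORC1 arm, which lies above RPS6KB1 and RPS6KB2, had 4 of 11 genes higher and 1 lower in ESX1 than in WT. Of all tested genes, 12.9% were higher and 15.8% lower in that comparison. RRAGC, a GTPase that recruits mTORC1 to lysosomes, was at 27.3 to 39.8 CPM in ESX1, 22.8 to 26.8 in NC and 17.3 to 21.3 in WT and rose by 0.72 in ESX1 against WT (edgeR adjusted p = 0.00412). AKT1S1, an inhibitory subunit of mTORC1, rose by 0.73 (edgeR adjusted p = 0.0213). DEPTOR, another inhibitor, fell by 1.75 (edgeR adjusted p = 0.0157) from low levels of 1.86 to 5.33 CPM in WT. The exon bases shared with other annotated genes are 22.9% for RRAGC, 9.61% for DEPTOR and 8.75% for AKT1S1. The AKT1S1 call was lost without ESX1 replicate 1 (0.109), ESX1 replicate 3 (0.0662) or WT replicate 2 (0.105), and that of DEPTOR without ESX1 replicate 2 (0.0524), ESX1 replicate 3 (0.0661) or WT replicate 3 (0.115). DEPTOR was also lower in NC than in WT (-1.65, adjusted p = 0.0288), and RPTOR, the scaffold of mTORC1, was higher there (0.44, adjusted p = 0.0184). These calls were lost without NC replicate 1 (0.0659 for DEPTOR and 0.0769 for RPTOR), NC replicate 3 (0.122 and 0.0549), WT replicate 2 (0.0666 and 0.13) or WT replicate 3 (0.187 and 0.0521), and that of DEPTOR also without NC replicate 2 (0.0691).

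Among the 7 other MAPK-activated kinases and namesakes, 2 were higher in ESX1 than in WT. MAPKAPK2, a p38-activated kinase, rose by 0.53 (edgeR adjusted p = 0.00552), with 67.7 to 84.7 CPM in WT, 84.3 to 102 in NC and 98.6 to 127 in ESX1. RPS6KC1, which carries the family name but encodes a lipid-binding relative, rose by 0.32 (adjusted p = 0.0311), a call lost without any one of ESX1 replicates 1 and 3 (0.0658 and 0.0561) and WT replicates 2 and 3 (0.18 and 0.0763), and without a filter on low counts (0.103). In this list 0 genes passed in the other 2 comparisons in edgeR, with 0 (ESX1 and NC) and 3 (NC and WT) at an unadjusted p below 0.05.

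Of 12 substrate genes, 2 were higher and 3 lower in ESX1 than in WT, and 3 were lower in NC than in WT. HMGN1, a nucleosome-binding protein phosphorylated by MSK1, was at 170 to 220 CPM in ESX1, 194 to 200 in NC and 278 to 314 in WT. It fell by 0.65 in ESX1 (edgeR adjusted p = 0.000442) and by 0.61 in NC (adjusted p = 0.00153) against WT, and its log2 fold change between ESX1 and NC was -0.04 (adjusted p = 0.929). YBX1, a substrate of RSK, fell by 0.53 and 0.48 in ESX1 and NC (adjusted p = 0.00315 and 0.00975), and RPS6, the ribosomal protein of the family name, by 0.46 and 0.47 (adjusted p = 0.0071 and 0.0102). In NC these 2 calls depended on single samples, with an adjusted p of 0.0725 for YBX1 without NC replicate 1 and 0.0591 without WT replicate 2, and of 0.0678, 0.0767 and 0.0533 for RPS6 without NC replicate 2, NC replicate 3 or WT replicate 3. PDCD4, an inhibitor of translation that S6K1 marks for degradation, rose in ESX1 against WT by 1.40 (adjusted p = 0.000934), with 4.37 to 7.10 CPM in WT, 7.74 to 11.9 in NC and 10.7 to 20.9 in ESX1. Of the exon bases of PDCD4, 29.5% are shared with other listed genes, and of those of RPS6, 10.4%.

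The immediate-early genes downstream of MSK changed in both directions. Of 8 genes, 2 were higher and 5 lower in ESX1 than in WT, and 1 was higher and 4 lower in NC than in WT. The shares of all tested genes were 12.9% higher and 15.8% lower in ESX1 against WT. In NC against WT they were 6.82% and 10.3%. JUN was at 62.9, 25.8 and 34.4 CPM in ESX1, 27.6, 22.7 and 24.4 CPM in NC, and 8.63, 7.29 and 3.76 CPM in WT. Both transfected groups lay above WT and overlapped each other. JUN rose by 2.66 in ESX1 (edgeR adjusted p = 7.41e-06) and by 1.93 in NC (adjusted p = 0.00045) against WT, and its log2 fold change between ESX1 and NC was 0.72 (adjusted p = 0.173). FOS, its partner in the AP-1 factor, was at 10.7, 21.9 and 22.5 CPM in ESX1, 17.7, 17.4 and 18.5 CPM in NC, and 18.9, 95.2 and 82.7 CPM in WT. WT replicate 1 was far below the other WT samples and within the range of the activated samples. FOS fell by 1.87 in NC (adjusted p = 0.0035) and by 1.85 in ESX1 (adjusted p = 0.00214) against WT.

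MCL1, a survival gene of the BCL2 family, was at 401 to 524 CPM in ESX1, 570 to 597 in NC and 698 to 1005 in WT, with no overlap between the groups. It fell by 0.88 in ESX1 (edgeR adjusted p = 7.82e-05) and by 0.58 in NC (adjusted p = 0.00484) against WT. DUSP1, a phosphatase that inactivates p38 and JNK and a known target of MSK, was at 23.1, 18.3 and 21.1 CPM in ESX1, 12.6, 11.1 and 11.6 CPM in NC, and 9.61, 10.6 and 7.42 CPM in WT. All activated samples were above all controls. DUSP1 rose by 1.18 against WT (adjusted p = 0.000205) and by 0.82 against NC (adjusted p = 0.0161). The call against NC was lost without ESX1 replicate 1 (0.0632), ESX1 replicate 3 (0.0535), NC replicate 2 (0.0951) or NC replicate 3 (0.0871). The shares of mitochondrial counts and the summed seminoma markers also differed between the groups without overlap, and their part in these differences was not tested.

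**Figure D5:**
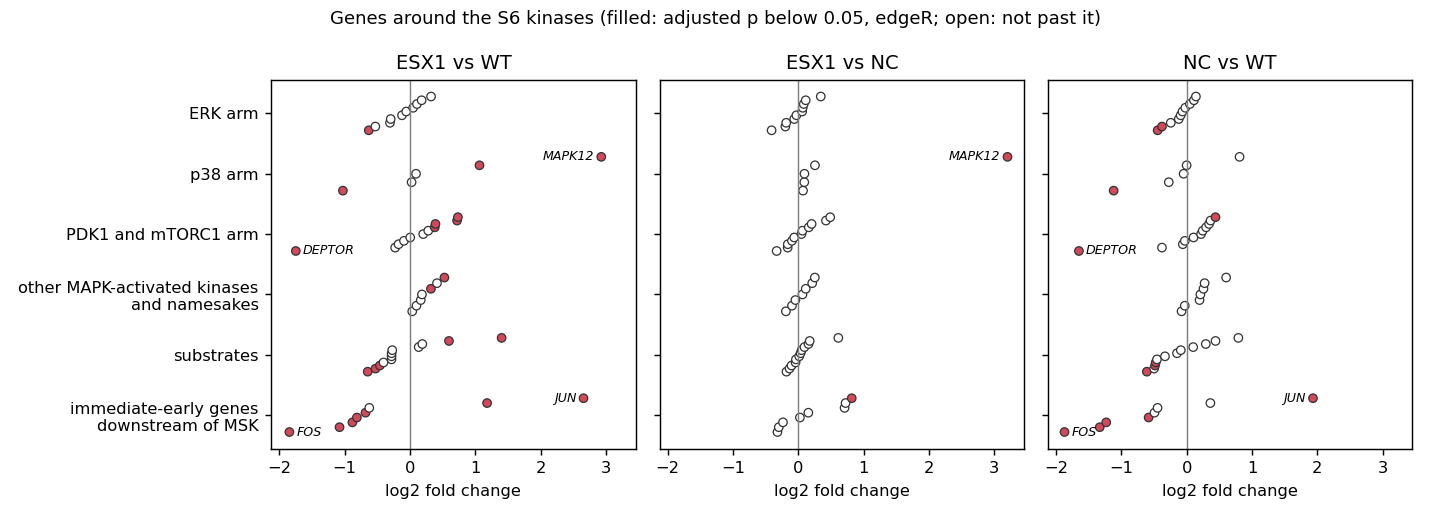
Log2 fold change (horizontal axis) of the tested genes in the 6 lists around the kinases for ESX1 against WT, ESX1 against NC, and NC against WT, with filled points for an adjusted p below 0.05 in edgeR and open points for the rest. Filled points number 23, 2 and 13, and MAPK12 at 2.93 and 3.20 is the farthest to the right in both comparisons of the activated cells.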

How the data were processed

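Ribosomal RNA-depleted RNA of 9 TCam-2 samples was sequenced, with 3 samples labelled as biological replicates per group. The sources used here do not say whether samples shared a culture, so the p-values measure the spread between these samples. The authors aligned reads with HISAT2 2.0.5 and deposited unnormalized counts per gene on GRCh38. The header of the count table names featureCounts 1.5.2, run without the strand option, and GENCODE 26, whereas the submitters' processing notes name featureCounts 1.6.5. The authors also deposited normalized log2 values, made with DESeq2 by their account, with a transformation that is not given in the sources used here. Both tables hold 63856 genes in the same order, and in all 9 samples their columns ranked the genes alike. No count fell on the 5637 genes of other scaffolds.

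The counts were fitted with edgeR 4.0.16 under R 4.3.3 (filterByExpr by group, TMM, glmQLFit over all 9 samples, glmQLFTest). The Benjamini-Hochberg adjustment covered the 18452 genes tested. A gene was called at an adjusted p below 0.05. The standard error is the log2 fold change divided by the root of the F statistic. CPM are normalized counts per 1000000, and CPM per kb divides them by the exon length of the count table. DESeq2 1.42.0, limma 3.58.1 on the deposited log2 values, other scalings and filters, a replicate block and leaving out each sample were alternatives.

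The members and gene lists were chosen with earlier results of these data known. Named were all members, ESX1, up to 3 genes per list and comparison with the smallest adjusted p below 0.05, the 5 genes most like RPS6KA5, its nearest tested protein-coding neighbours and genes that share exons with a member. The values of some genes that this rule named are not reported here. Promoter windows came from RefSeq (GRCh38.p14), which held at least 1 for each of the 8 members.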

Additional observations from a re-analysis of the deposited data

How the results depend on the processing

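The fold changes of the members, C14orf159 and TTC7B, those of most list genes named in a comparison they passed, and the counts of calls were recomputed in 9 other fits (8 for MAPK12 and DEPTOR) and without each of the 9 samples. Levels per length, shares, likeness and the other list gene values were not. RPS6KA5 stayed lower in ESX1 than in both controls, at -1.05 to -0.93 against WT and -0.85 to -0.78 against NC in the other fits, and at -1.26 to -0.91 and -1.07 to -0.72 without a sample. Of the 21 tests of the other members, 9 kept their call and direction throughout. The number of other members called in ESX1 against WT, 2, was 0 with a 2-fold threshold, 1 with upper-quartile scaling and 0 to 3 without a sample. Called list genes numbered 15 to 23 (ESX1 against WT), 1 to 3 (ESX1 against NC) and 6 to 18 (NC against WT) without a sample, and 1 in ESX1 against NC with at least 10 counts in every sample, where MAPK12 was no longer tested.

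Small uncalled differences turned their sign. With upper-quartile scaling, which put the median of all genes at 0.11 rather than 0.0066 between ESX1 and WT, the log2 fold change was 0.032 for RPS6KA1 and 0.077 for TTC7B in ESX1 against WT, and 0.019 for RPS6KA2 in NC against WT. TTC7B was also at 0.021 with at least 10 counts in every sample and at 0.0042 in a fit of the 6 samples compared. Without a sample, ESX1 against WT ran from -0.34 to 0.13 for RPS6KA1, -0.37 to 0.033 for RPS6KA2, -0.024 to 0.10 for RPS6KB1 and -0.11 to 0.032 for TTC7B. ESX1 against NC ran from -0.21 to 0.25 for RPS6KA1, -0.27 to 0.32 for RPS6KA4 and -0.0085 to 0.22 for RPS6KA6. NC against WT ran from -0.021 to 0.26 for RPS6KA3, -0.0061 to 0.19 for RPS6KA6 and -0.23 to 0.18 for RPS6KA2. The cause was not tested.

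The replicate numbers of the titles recur in each group. The deviations of same-numbered samples correlated weakly, at -0.030 to 0.193 over all comparisons and at 0.016 to 0.193 between ESX1 and NC. Both this check and the block rest on the titles, and the library names of the activated samples carry other numbers. The check therefore cannot decide whether the samples were paired. With the replicate number as a block, 26, 2 and 16 list genes and 2, 0 and 0 other members were called in ESX1 against WT, ESX1 against NC and NC against WT. Over all genes the calls were 5744, 1052 and 3720 with the block and 5306, 784 and 3158 without it. With 3 samples a group and 5212804 counts in the shallowest, differences smaller than the intervals given could not be resolved.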
